A study of Mus musculus with 24 samples.

Results

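In this series 9 genes of the dual-specificity phosphatase (DUSP) family, the enzymes that switch off MAP kinases, were followed in mouse brain after an experimental stroke. They were taken by gene symbol, and not by their values, as Dusp1, Dusp2, Dusp4, Dusp5, Dusp6, Dusp8, Dusp10, Dusp14 and Dusp16. These are 9 of the 19505 genes named on the array. Each was represented by 1 probe set, a group of array probes read together as 1 signal. The members were contrasted as 4 nuclear inducible phosphatases (Dusp1, Dusp2, Dusp4 and Dusp5), the cytoplasmic ERK-selective Dusp6, 3 phosphatases of the stress kinases JNK and p38 (Dusp8, Dusp10 and Dusp16) and the atypical Dusp14.

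RNA came from 12 male C57Bl/6j mice aged 8 to 10 weeks, with no genetic alteration named in the labels. In 8 mice the middle cerebral artery was blocked on one side for 90 min with an intraluminal filament (middle cerebral artery occlusion, MCAO), and the brain was taken 30 min after the block ended, 2 h after its start. The other 4 mice had sham surgery. All brains were flushed with cold saline, and the ipsilateral hemisphere (IP, on the side of surgery) and the contralateral hemisphere (CL) of each mouse were put on an array each, 24 arrays in all. The authors deposited 1 log2 signal per probe set and array, and these are the values used. Each sample is a whole hemisphere with all its cell types, so fewer cells of a type and less RNA per cell cannot be told apart.

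MAP kinase phosphatases remove phosphate from the threonine and the tyrosine whose phosphorylation activates ERK, JNK and p38. Several of their genes are transcribed within minutes of MAP kinase activation, which makes them part of a negative feedback loop: a kinase raises the enzyme that later turns it off. In brain, neuronal activity and seizures are known inducers of Dusp1. Members differ in where they act and on what: Dusp1, Dusp2, Dusp4 and Dusp5 are nuclear, Dusp6 holds ERK in the cytoplasm, and Dusp8, Dusp10 and Dusp16 act mainly on JNK and p38.

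The arrays were of unequal quality. On 20 arrays the median Pearson correlation with the other arrays was 0.981 to 0.989. On the other 4, which are the IP and CL arrays of MCAO mouse 3 and of sham mouse 1, it was 0.33 to 0.551. Their positive control probe sets averaged 4.695 to 5.01, against 6.51 to 6.745 on the 20. These 4 arrays were left out, which left 7 MCAO and 3 sham mice, and values with all 24 are given beside the main differences. Dusp1, a bright transcript at 8.6 to 10.67 on the 20 arrays, read 5.98 to 6.94 on the 4 and was above background on 0 of them. The samples carried the markers of brain tissue, since 8 of 8 neuronal and 6 of 6 astrocyte markers were above background (brighter than the 95th percentile of that array's negative controls) on each of the 20 arrays. The 5 neutrophil and monocyte markers measured were above background on 0 of the 20. The number of arrays, above all of sham arrays, limits the precision of every value.

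The promoters of 4 members are shown here so that the genes on which the results turn can be read side by side. Dusp1 and Dusp6 rose after occlusion, Dusp5 had the next largest difference, and Dusp8 is the bright member whose difference lay nearest to 0. Each stretch is the 250 bases before the gene's start in RefSeq (GRCm38.p6), read 5′ to 3′ on the gene's strand. Capitals mark the cyclic AMP response element (CRE) TGACGTCA, its half-site TGACG on either strand (a full CRE holds a half-site on each strand, so these overlap), and the CArG box, the site of serum response factor.
Dusp1, chr17:26508473-26508722, minus strand: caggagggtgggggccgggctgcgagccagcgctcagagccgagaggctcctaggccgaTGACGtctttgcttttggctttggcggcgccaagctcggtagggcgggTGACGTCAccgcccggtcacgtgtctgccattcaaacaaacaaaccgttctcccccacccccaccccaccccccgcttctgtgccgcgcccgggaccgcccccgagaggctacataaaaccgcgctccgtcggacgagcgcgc
Dusp5, chr19:53528895-53529144, plus strand: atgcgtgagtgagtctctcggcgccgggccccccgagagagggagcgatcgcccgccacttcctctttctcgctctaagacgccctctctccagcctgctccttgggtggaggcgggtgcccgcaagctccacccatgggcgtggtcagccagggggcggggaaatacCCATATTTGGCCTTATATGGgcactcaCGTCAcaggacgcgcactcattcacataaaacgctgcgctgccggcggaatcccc
Dusp6, chr10:99262981-99263230, plus strand: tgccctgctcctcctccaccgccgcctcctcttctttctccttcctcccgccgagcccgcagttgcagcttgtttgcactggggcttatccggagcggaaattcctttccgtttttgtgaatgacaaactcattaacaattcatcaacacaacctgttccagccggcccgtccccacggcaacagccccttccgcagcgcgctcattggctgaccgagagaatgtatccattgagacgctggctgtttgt
Dusp8, chr7:142095285-142095534, minus strand: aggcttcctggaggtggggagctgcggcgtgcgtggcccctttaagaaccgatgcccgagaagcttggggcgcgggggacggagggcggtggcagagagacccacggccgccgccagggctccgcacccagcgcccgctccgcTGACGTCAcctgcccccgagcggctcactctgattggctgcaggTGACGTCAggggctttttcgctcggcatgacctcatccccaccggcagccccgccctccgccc
The table held 8 of the 9 members and not Dusp4. On both strands, a full CRE was found in 2 of the 8, at 143 bases before the start of Dusp1 and at 107 and 63 bases before that of Dusp8, against 1.55% of the 32851 promoters in the table. The half-site occurred in 4 of the 8 (Dusp1, Dusp5, Dusp8 and Dusp16; 17.8% of all promoters). The CArG box was found in 1 of the 8, Dusp5, at 82 and 72 bases before its start. At least 1 CArG box was in 1.47% of all promoters, and the share with a pair was not counted. The hypoxia response core ACGTG was found in 3 of the 8 (Dusp1, Dusp2 and Dusp5; 16.6% of all promoters). In Dusp1 and Dusp2 the matches on both strands fall on the same stretch, CACGTG. The match in Dusp5, 57 bases before its start, overlaps the CRE half-site 55 bases before it. No match was found in these 8 windows to the AP-1 site TGANTCA (6.75% of all promoters), the EGR site GCGTGGGCG (0.536%), the ETS site CCGGAAG (6.91%), the NF-kB site (3.9%) or TATAAA (12.4%). The full CRE was in the windows of Dusp1 and Dusp8, and no searched motif was in that of Dusp6. The 8 windows held 56.4 to 71.6% G and C, against a median of 52.4% over all promoters. The shares of all promoters are therefore not matched for base content, and its part in the counts was not tested. A match describes letters and not a bound factor.

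Occlusion went with higher Dusp1 and Dusp6 transcripts, and with no called change in the other 7 members. In the occluded hemisphere Dusp6 was 2.15-fold and Dusp1 1.91-fold above the opposite hemisphere of the same mice. Against the same hemisphere of sham mice the folds were 3.49 and 3.22. Tests were made in limma over all 22206 probe sets with Benjamini-Hochberg adjustment, and a probe set is called at an adjusted p under 0.05. Within MCAO mice, 2 of 9 members were called higher, against 0.126% of all probe sets, and 0 lower, against 0.00901%. At an unadjusted p under 0.05, 7 of 9 members were higher on the occluded side against 3.18% of all probe sets. Dusp4 and Dusp16 are among these 7, though they were above background on only 1 and 5 of the 20 arrays. The median difference of the members was 0.34, and that of all probe sets was 0.00. Against sham IP, 2 of 9 members were again called higher (0.126% of all probe sets) and 0 lower (0.0225%), with a median difference of 0.53 against 0.01 over all probe sets. At an unadjusted p under 0.05, 5 of 9 were higher (3.85%). Both comparisons use the MCAO IP arrays, so they are not independent of each other.

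**Figure D1:**
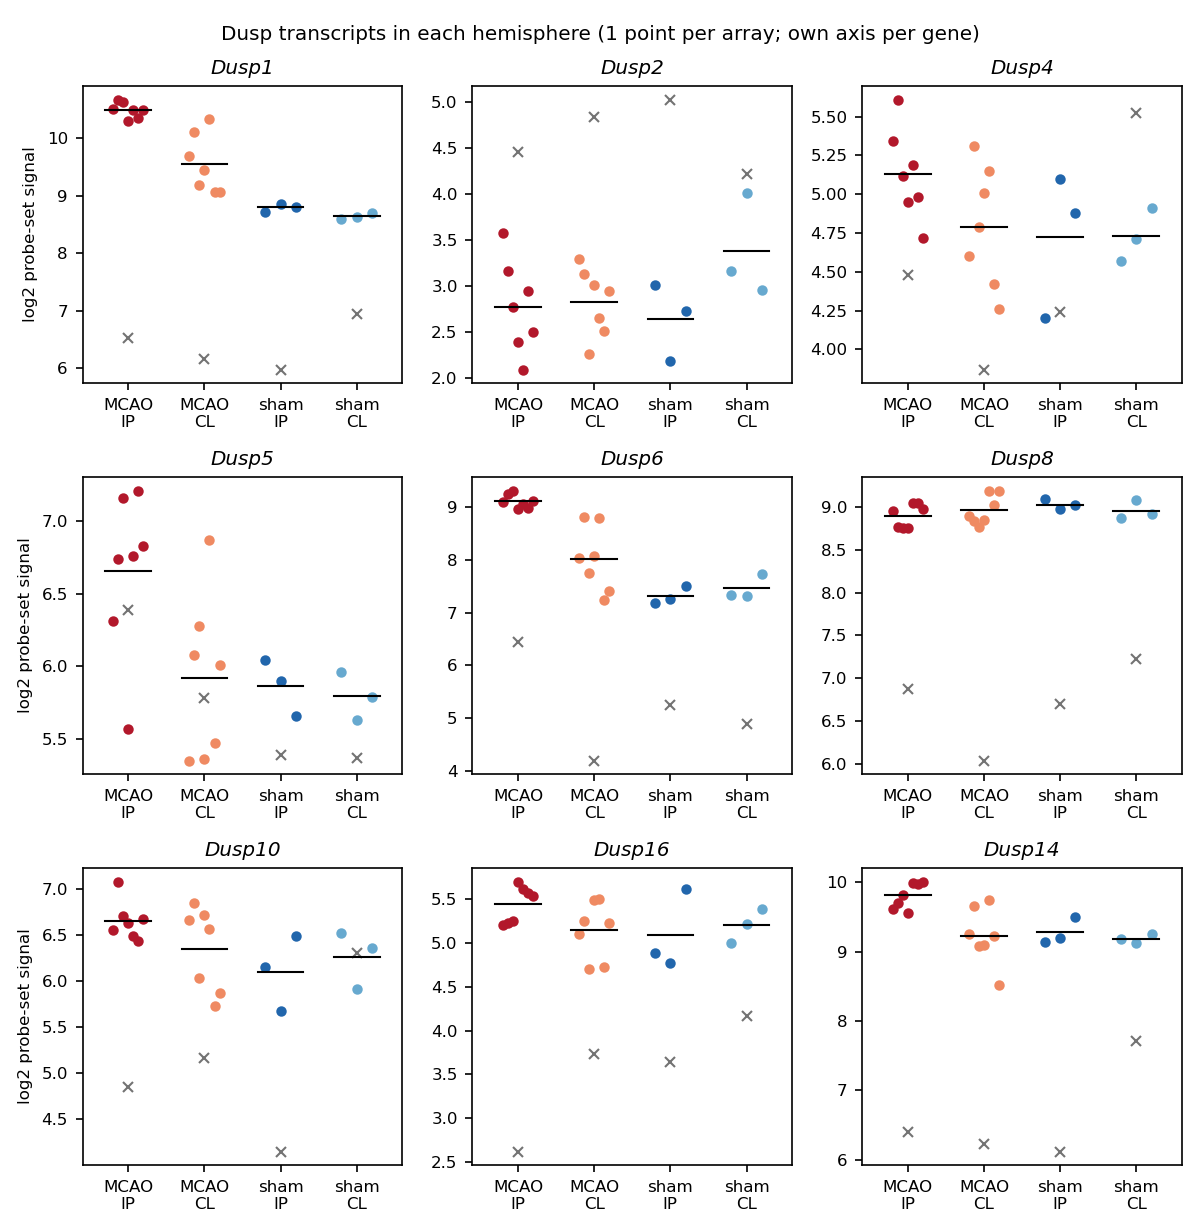
Log2 probe-set signal (y axis, its own range for each gene) of the 9 Dusp transcripts in the 4 groups (x axis), with 1 point per array, a bar at the mean of the 20 arrays, and crosses for the 4 arrays that stood apart. Dusp1 lies at 10.3 to 10.67 and Dusp6 at 8.97 to 9.32 in the occluded hemisphere, above all their sham values, while the opposite hemisphere of the same mice is spread between the sham level and that of the occluded side.

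Dusp6 (probe set TC1000001207.mm.2) codes for the cytoplasmic phosphatase that binds and inactivates ERK, and its own gene is a classical readout of ERK activity. In the occluded hemisphere its log2 signal ran from 8.97 over a median of 9.1 to 9.32 in 7 mice. In the opposite hemisphere it ran from 7.24 over 8.03 to 8.81. The sham mice had 7.19, 7.25 and 7.5 on the operated side and 7.33, 7.32 and 7.73 on the other. The occluded hemispheres were therefore above every other hemisphere on the 20 arrays, with no overlap. The side difference was 1.10 ± 0.17 (SE; 95% interval 0.74 to 1.47; limma adjusted p = 0.0211), and it was positive in 7 of 7 mice. In sham mice it was -0.14 ± 0.26 (limma adjusted p = 0.999), negative in 3 of 3. The difference between these side differences was 1.24 ± 0.31 (interval 0.58 to 1.91, unadjusted p = 0.00145 in limma). It did not pass after adjustment over all probe sets (0.481). Dusp6 was the 1 member higher on the IP side in every MCAO mouse and lower in every sham mouse, a pattern seen in 0.14% of probe sets. Against sham IP it was higher by 1.80 ± 0.13 (interval 1.53 to 2.07, limma adjusted p = 4.74e-06), which placed it at rank 4 of the 22206 probe sets by p. On all 24 arrays the side difference was 1.25 ± 0.19 (limma adjusted p = 0.00885) and the difference from sham IP 1.99 ± 0.55 (0.968).

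Dusp1 (TC1700001699.mm.2) codes for MKP-1, the archetype of the nuclear inducible class and an immediate early gene that acts on JNK, p38 and ERK. Its signal in the occluded hemisphere was 10.3 at the lowest, 10.49 at the median and 10.67 at the highest. In the opposite hemisphere the same mice gave 9.07, 9.44 and 10.33. Sham mice were at 8.72, 8.86 and 8.81 on the operated side and at 8.6, 8.63 and 8.69 on the other side. Both hemispheres of MCAO mice were thus above both hemispheres of sham mice, without overlap. The side difference in MCAO mice was 0.93 ± 0.14 (SE; interval 0.63 to 1.23; limma adjusted p = 0.0173; positive in 7 of 7). In sham mice it was 0.16 ± 0.21 (0.999), and positive in 3 of 3. These differed by 0.77 ± 0.25 (interval 0.22 to 1.32), which did not pass (limma adjusted p = 0.68). Against sham IP, Dusp1 was higher by 1.69 ± 0.12 (interval 1.43 to 1.95, limma adjusted p = 5.71e-06), at rank 5 of all probe sets. With all 24 arrays the side difference was 0.86 ± 0.17 (limma adjusted p = 0.0947) and the difference from sham IP 1.90 ± 0.77 (0.968), neither of them called.

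The calls against sham IP held without any 1 of the 10 mice, with differences of 1.74 to 1.90 for Dusp6 and 1.65 to 1.72 for Dusp1 and limma adjusted p up to 0.000143. Those against the opposite hemisphere were near the threshold. Both were lost without MCAO mouse 1, 4, 5, 7 or 8, where Dusp1 was at 0.85 to 0.95 (limma adjusted p = 0.0525 to 0.0777) and Dusp6 at 0.99 to 1.14 (0.0525 to 0.0981). Both were also lost with only the MCAO arrays in the model (0.0648 and 0.074), and Dusp6 with limma's trend and robust settings (0.0642).

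Dusp5 (TC1900000756.mm.2), a nuclear phosphatase that is selective for ERK, had the third largest difference. Its signal was 5.57 at the lowest, 6.76 at the median and 7.21 at the highest in the occluded hemisphere. The opposite hemisphere gave 5.35, 6.01 and 6.87. Sham values were 6.04, 5.9 and 5.66 on the operated side and 5.96, 5.63 and 5.79 on the other. In 6 of 7 mice the occluded hemisphere was above every sham value, and in mouse 5, at 5.57, it was below them all. The side difference of 0.74 ± 0.17 (interval 0.38 to 1.10) was positive in 6 of 7 mice and did not pass (limma adjusted p = 0.205). With the trend and robust settings it did (0.0125). Sham mice had a side difference of 0.08 ± 0.26, and the difference from sham IP was 0.79 ± 0.28 (interval 0.19 to 1.38, limma adjusted p = 0.529). With the 4 arrays added, the side difference was 0.72 ± 0.16 (0.223) and the difference from sham IP 0.87 ± 0.30 (0.968). Dusp5 was above background on 18 of the 20 arrays.

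Dusp4 (TC0800000416.mm.2), which codes for the nuclear MKP-2, and Dusp2 (TC0200001913.mm.2), a nuclear phosphatase known best from lymphocytes, were too dim for a fold. Dusp4 was above background on 1 of the 20 arrays and Dusp2 on 0. For Dusp4 the occluded side ran from 4.72 over 5.12 to 5.61 and the opposite side from 4.26 over 4.79 to 5.31. The sham values of 4.2, 5.1 and 4.88 (IP) and 4.57, 4.71 and 4.91 (CL) overlapped both. Its measured side difference was 0.34 ± 0.11 in MCAO mice (limma adjusted p = 0.509, 6 of 7 mice) and 0.00 ± 0.17 in sham mice. Dusp2 had side differences of -0.05 ± 0.20 (0.983) in MCAO and -0.74 ± 0.30 (0.868) in sham mice. The sham value came largely from mouse 3, whose sides were at 2.18 and 4.01, and was -0.19 without it. The side differences in MCAO mice on all 24 arrays were 0.37 ± 0.16 for Dusp4 (0.94) and -0.10 ± 0.22 for Dusp2 (0.964). Of the 4 nuclear inducible phosphatases, 1 was called higher on the occluded side, against 0.126% of all probe sets. At an unadjusted p under 0.05, 3 were higher, the dim Dusp4 among them, against 3.18% of all probe sets.

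None of the 3 JNK and p38 phosphatases was called in any comparison. Between the sides of MCAO mice, 2 of 3, Dusp10 and Dusp16, were higher at an unadjusted p under 0.05, against 3.18% of all probe sets. Dusp8 (TC0700004553.mm.2), which is expressed mainly in brain and heart, was the steadiest member. It ran from 8.75 over 8.95 to 9.05 in the occluded hemisphere and from 8.77 over 8.89 to 9.19 in the opposite one. Sham values were 9.09, 8.97 and 9.02 (IP) and 8.87, 9.08 and 8.92 (CL), within the same narrow range. Its SD over the 20 arrays was 0.14, against 0.79 for Dusp1 and 0.82 for Dusp6. The side difference was -0.07 ± 0.07 in MCAO mice (interval -0.23 to 0.10, limma adjusted p = 0.929), so the interval leaves out the sizes measured for Dusp1 and Dusp6. In sham mice it was 0.07 ± 0.11, and the difference from sham IP was -0.13 ± 0.12 (interval -0.39 to 0.13, 0.865). On all 24 arrays the MCAO side difference was 0.05 ± 0.13 (0.973) and that from sham IP 0.20 ± 0.50 (0.968), both of opposite sign and with intervals that held 0.

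Dusp10 (TC0100001765.mm.2), which codes for MKP-5, was above background on all 20 arrays. It was at 6.43, 6.63 and 7.08 (lowest, median, highest) in the occluded and 5.73, 6.56 and 6.85 in the opposite hemisphere. Sham values were 6.15, 5.67 and 6.49 (IP) and 6.52, 5.91 and 6.36 (CL). The groups overlapped throughout. The side difference was 0.31 ± 0.13 (interval 0.02 to 0.59, limma adjusted p = 0.667), and it split the mice: mice 4, 7 and 8 were at 0.68, 0.7 and 0.8, mouse 2 at 0.23, and mice 1, 5 and 6 at -0.11, -0.09 and -0.07. Against sham IP the difference was 0.55 ± 0.18 (0.441). Dusp16 (TC0600003307.mm.2), which codes for MKP-7, was dim. It was above background on 4 of 7 occluded, 0 of 7 opposite, 1 of 3 sham IP and 0 of 3 sham CL hemispheres. The cut differs by array, and the CL value of mouse 6, at 5.5, lay at its cut of 5.504. Its signal ran from 5.2 over 5.54 to 5.7 on the occluded and from 4.7 over 5.23 to 5.5 on the opposite side. Sham mice gave 4.89, 4.77 and 5.61 (IP) and 5.0, 5.21 and 5.39 (CL), which overlapped both MCAO groups. The side difference was 0.30 ± 0.11 (limma adjusted p = 0.591, 6 of 7 mice) and the difference from sham IP 0.35 ± 0.18 (0.703). Over 24 arrays the side differences were 0.23 ± 0.21 for Dusp10 (0.94) and 0.13 ± 0.17 for Dusp16 (0.94), and the differences from sham IP 0.81 ± 0.46 and 0.36 ± 0.54 (0.968 each).

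Dusp14 (TC1100003406.mm.2), a small atypical phosphatase without the MAP kinase-binding domain of the other members, was higher on the occluded side in every MCAO mouse but did not pass. Its signal was 9.56, 9.81 and 10.01 (lowest, median, highest) on the occluded side and 8.52, 9.22 and 9.75 on the opposite side. Sham mice were at 9.14, 9.2 and 9.5 (IP) and 9.18, 9.12 and 9.26 (CL). The lowest occluded hemisphere, at 9.56, was just above the highest sham IP value of 9.5. The side difference was 0.58 ± 0.14 (interval 0.28 to 0.89, limma adjusted p = 0.253, positive in 7 of 7), and that in sham mice was 0.09 ± 0.21. Mouse 8 contributed the largest difference of 1.49, and mouse 2 the smallest of 0.04. Against sham IP the difference was 0.53 ± 0.14 (interval 0.22 to 0.84, limma adjusted p = 0.317), and with the trend and robust settings it passed (0.0457). With the 4 arrays added these were 0.53 ± 0.19 (0.94) and 0.90 ± 0.74 (0.968).

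**Figure D2:**
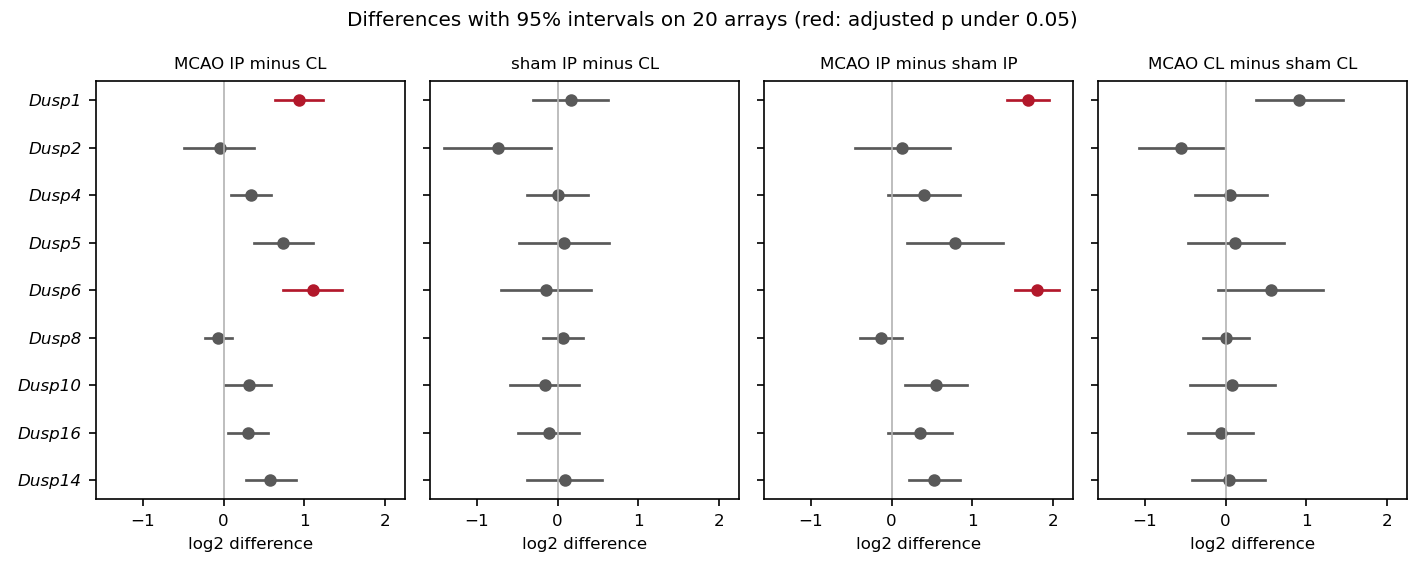
Log2 difference (x axis) of each Dusp transcript (y axis) in 4 comparisons on 20 arrays, as points with 95% intervals from limma, in red where the adjusted p is under 0.05. Dusp1 and Dusp6 are the members in red, within MCAO mice (0.93 and 1.10) and against sham IP (1.69 and 1.80), and no member is red in the sham or the contralateral comparison.

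In all, 3 members, Dusp1, Dusp6 and Dusp14, were higher on the IP side in each of the 7 MCAO mice, against 1.22% of probe sets. The same 3 had MCAO IP values that did not overlap with sham IP, against 1.4% of probe sets. In sham mice 0 of 9 members were called between the sides, and 0.0% of probe sets were (1220 of them at an unadjusted p under 0.05, smallest limma adjusted p 0.432). Higher at an unadjusted p under 0.05 were 0 of 9 (2.8% of probe sets). Lower was 1 of 9, Dusp2, which was below background throughout (599 of the 22206 probe sets were lower). The members' median sham side difference was 0.00, and 4 of 9 were above 0. In the comparison of side differences between MCAO and sham mice, 0 of 9 were called (0.0% of probe sets; 1312 at an unadjusted p under 0.05), with 2 of 9 higher at an unadjusted p under 0.05, Dusp6 and Dusp1 (2.8% of probe sets). The median over the members was 0.49. Side differences of MCAO mice lay above those of sham mice without overlap for 1 of 9, Dusp6 (1.07% of probe sets). On all 24 arrays 1 of 9 members, Dusp6, was called between the sides (0.0856% of probe sets) and 0 of 9 against sham IP (0.0045% of probe sets).

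**Figure D3:**
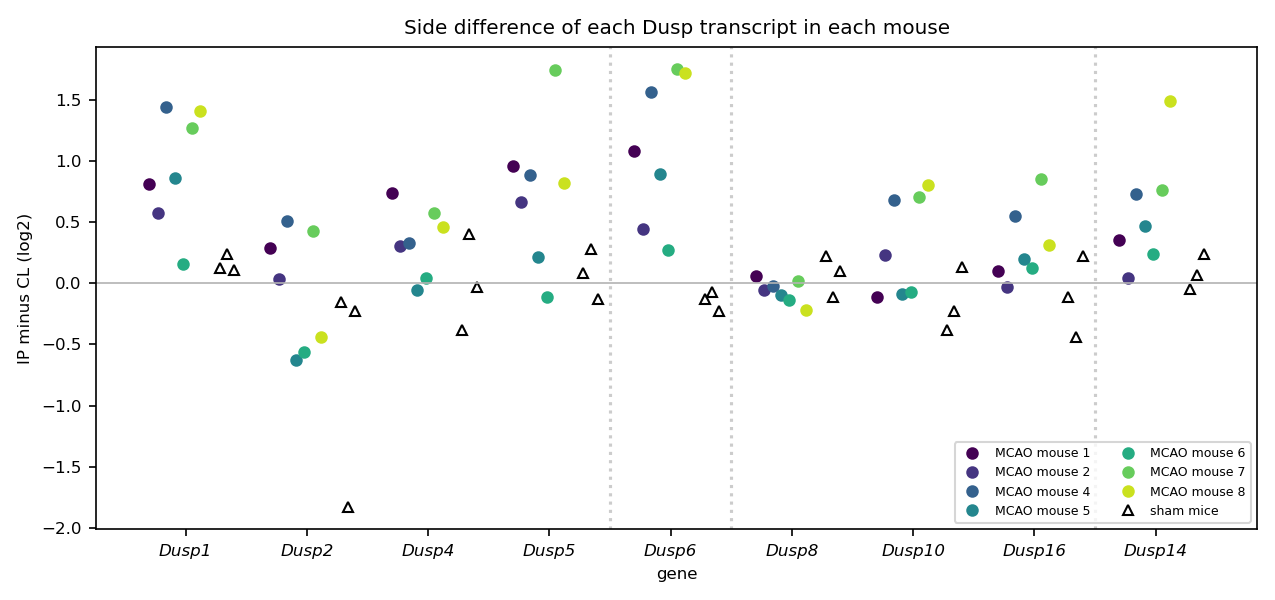
IP minus CL log2 difference (y axis) of each Dusp transcript (x axis) in single mice, with MCAO mice as filled circles coloured by mouse and sham mice as open triangles. Mice 4, 7 and 8 have the largest and mouse 6 the smallest difference for Dusp1 and Dusp6, Dusp8 stays between -0.22 and 0.06 in all 7, and 1 sham mouse stands at -1.83 for Dusp2.

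The members were set against each other within mice, as a description of 7 animals. The side difference of Dusp6 exceeded that of Dusp8 in 7 of 7 mice, by a mean of 1.17 ± 0.60 (SD). It exceeded that of Dusp10 by 0.79 ± 0.37 and that of Dusp16 by 0.80 ± 0.41, each in 7 of 7. Dusp1 exceeded the same 3 genes in 7 of 7 mice as well, by 1.00 ± 0.48, 0.62 ± 0.27 and 0.63 ± 0.34 (SD). The ERK-selective member and MKP-1 thus had larger measured side differences than each stress kinase phosphatase in every animal. Among themselves they were close: Dusp6 exceeded Dusp1 in 6 of 7 mice by 0.17 ± 0.20 (SD). The nuclear class was not uniform, since Dusp1 exceeded Dusp4 in 7 of 7 mice (0.59 ± 0.43) but Dusp5 in 4 of 7 (0.19 ± 0.44). Dusp4 and Dusp16 were mostly below background, so a smaller difference there is a measured value and not a smaller change in transcript. The left-out MCAO mouse 3 is not among the 7: its side difference was 0.36 for Dusp1 and 0.83 for Dusp8, the opposite order, and 2.26 for Dusp6.

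In the opposite hemisphere no member passed between MCAO and sham mice. The largest difference was that of Dusp1, at 0.91 ± 0.25 (interval 0.38 to 1.45), with no overlap on the 20 arrays (unadjusted p = 0.00263 in limma, adjusted p = 0.988). Dusp6 was at 0.56 ± 0.30 (interval -0.09 to 1.21, limma adjusted p = 1.0), with overlap. Higher at an unadjusted p under 0.05 was 1 of 9, Dusp1 (2.52% of probe sets). The other 7 members were at -0.55 to 0.12, and the interval of each but Dusp2 held 0. Dusp2, below background on all these arrays, was at -0.55 ± 0.24 (1.0). In all, 0 of 9 members were called, as were 0.0% of probe sets (1020 at an unadjusted p under 0.05, smallest limma adjusted p 0.174). Dusp1 was the 1 member of 9 without overlap in the opposite hemisphere (0.779% of probe sets) and in both hemispheres (0.054% of probe sets). On all 24 arrays Dusp1 was at 0.92 ± 0.66 and Dusp6 at 0.72 ± 0.79 (limma adjusted p = 0.997 each), with overlap.

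**Figure D4:**
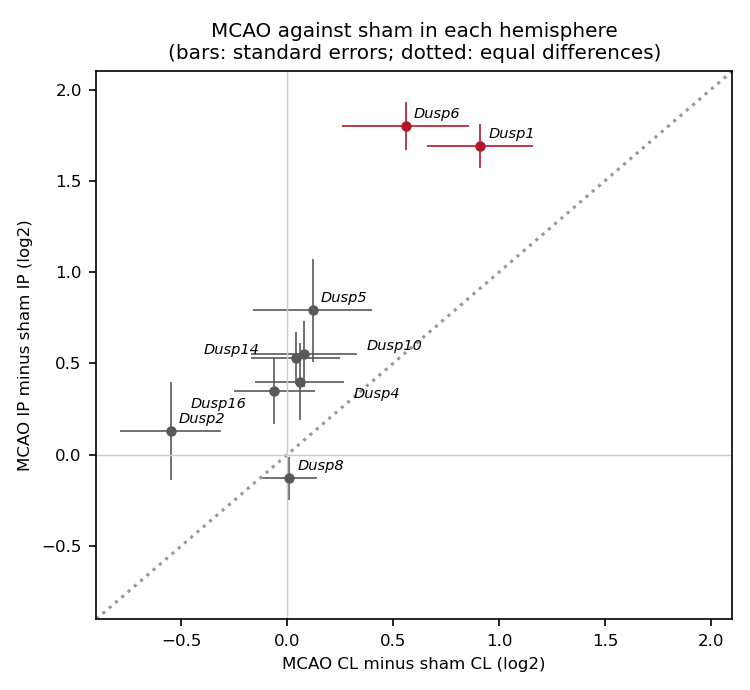
Log2 difference between MCAO and sham mice in the ipsilateral (y axis) and in the contralateral hemisphere (x axis) for each Dusp transcript on 20 arrays, with standard errors as bars and a dotted line where both are equal. Dusp6 (0.56, 1.80) and Dusp1 (0.91, 1.69) lie highest and above the line, and Dusp1 lies farthest to the right. The other members but Dusp8 (0.01, -0.13) also lie above the line, among them Dusp5 (0.12, 0.79) and the dim Dusp2 (-0.55, 0.13).

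For Dusp1 and Dusp6 the opposite hemisphere had the wider spread between mice. In the occluded hemisphere the SD over 7 mice was 0.14 for Dusp1 and 0.13 for Dusp6, and in the opposite hemisphere it was 0.51 and 0.61. MCAO mice 2 and 6 had the highest contralateral values, of 10.1 and 10.33 for Dusp1 and 8.81 and 8.79 for Dusp6, close to their occluded sides. Their side differences were the smallest, at 0.57 and 0.16 for Dusp1 and 0.44 and 0.27 for Dusp6. Mice 7 and 8, with the lowest contralateral values (9.07 and 9.07 for Dusp1, 7.24 and 7.41 for Dusp6), had side differences of 1.27 and 1.41 and of 1.75 and 1.72. A side difference contains the contralateral value, so this is arithmetic and no separate finding. Dusp14 also had its highest contralateral values in mice 2 and 6, at 9.66 and 9.75. Dusp5 and Dusp10 did not have this order: mouse 4 (6.28) was above mouse 2 (6.08) for Dusp5, and mouse 5 (6.72) above mouse 6 (6.56) for Dusp10. For Dusp8 the contralateral SD was 0.17 and the occluded SD 0.14. The mean of the 8 neuronal markers was 9.9 to 10.19 on the contralateral MCAO arrays and 10.0 to 10.09 on the contralateral sham arrays, and that of 5 striatal markers 7.49 to 9.5 and 8.67 to 9.52. Their part in the spread was not tested.

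The kinases of the pathway passed no test on the occluded side. Of 12 MAP kinases, 6 MAP kinase kinases, 17 upstream MAP3 kinases and RAF proteins, and 16 scaffolds and substrates measured, 0 were called in either direction in limma, with median differences of 0.01, 0.02, -0.06 and 0.01 and with 0, 0, 3 and 3 genes at an unadjusted p under 0.05. Of the 19 other DUSP and related genes, 0 were called (median 0.02, 2 at an unadjusted p under 0.05). Among them Dusp23, a small atypical phosphatase, was at 0.38 ± 0.14 (limma adjusted p = 0.572) and Styxl1 at -0.29 ± 0.11 (0.591). Dusp7 and Dusp9, the closest relatives of Dusp6, were at -0.02 ± 0.08 and 0.08 ± 0.11. Other MAP kinase phosphatases, of the PTP, PPM and PP2A families, had 0 of 9 called (median 0.04, 0 at an unadjusted p under 0.05). The Sprouty, Spred and EGFR feedback genes, which restrain ERK further upstream, had 0 of 11 called with a median of 0.19, and 4 had an unadjusted p under 0.05. Spry2 led them at 0.44 ± 0.09 (limma adjusted p = 0.168, higher in 7 of 7 mice), below Dusp1 and Dusp6, and Spry4 was at 0.35 ± 0.11 (0.482). Over the 10 lists of cell type markers, 0 genes were called between these sides or against sham. Against sham IP, where Dusp1 and Dusp6 had their largest differences, 6 of 6 endothelial markers were above 0 (0.09 to 0.89, median 0.17, 2 at an unadjusted p under 0.05). The same 6 were above 0 in the contralateral comparison as well (0.02 to 0.68, median 0.22, 2 at an unadjusted p under 0.05). Their mean was 6.2 to 6.52 on MCAO IP and 5.91 to 6.18 on sham IP arrays, and none of the 6 was below background on every array. Astrocyte markers were above 0 against sham IP in 6 of 6 (median 0.05) and microglial markers in 5 of 6 (median 0.15). Striatal markers were below 0 against sham IP in 5 of 5 (median -0.22), and in the contralateral comparison in 5 of 5 as well (median -0.30). The part of these markers in the Dusp differences was not tested.

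Some of the immediate early genes that MAP kinases switch on, most of them coding for transcription factors, rose on the occluded side as Dusp1 and Dusp6 did. Of 16 measured, 7 were called higher and 0 lower, with a median of 0.68, against 0.126% of all probe sets called higher. At an unadjusted p under 0.05, 12 of 16 were higher, against 3.18% of all probe sets. The other 9 did not pass and were not alike. Among them were Fosl2 at 0.94 ± 0.20 (limma adjusted p = 0.136) and Egr1 at 0.67 ± 0.12 (0.0717). Smaller differences were those of Myc at -0.04 ± 0.15, Etv1 at 0.04 ± 0.09, Fosl1 at 0.06 ± 0.12 and Ier3 at 0.20 ± 0.12. Fos was at 2.13 ± 0.23 (limma adjusted p = 0.00237), Fosb at 1.94 ± 0.21 (0.00237) and Atf3 at 1.60 ± 0.20 (0.00435). Against sham IP 7 of 16 were called higher and 0 lower, with a median of 0.99. Of the 9 Dusp members, Dusp6, Dusp1 and Dusp5 lay above the median of these targets, at 1.10, 0.93 and 0.74, and the other 6 below it, at -0.07 to 0.58. With all arrays 5 of the 16 were called between the sides and 0 against sham IP.

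**Figure D5:**
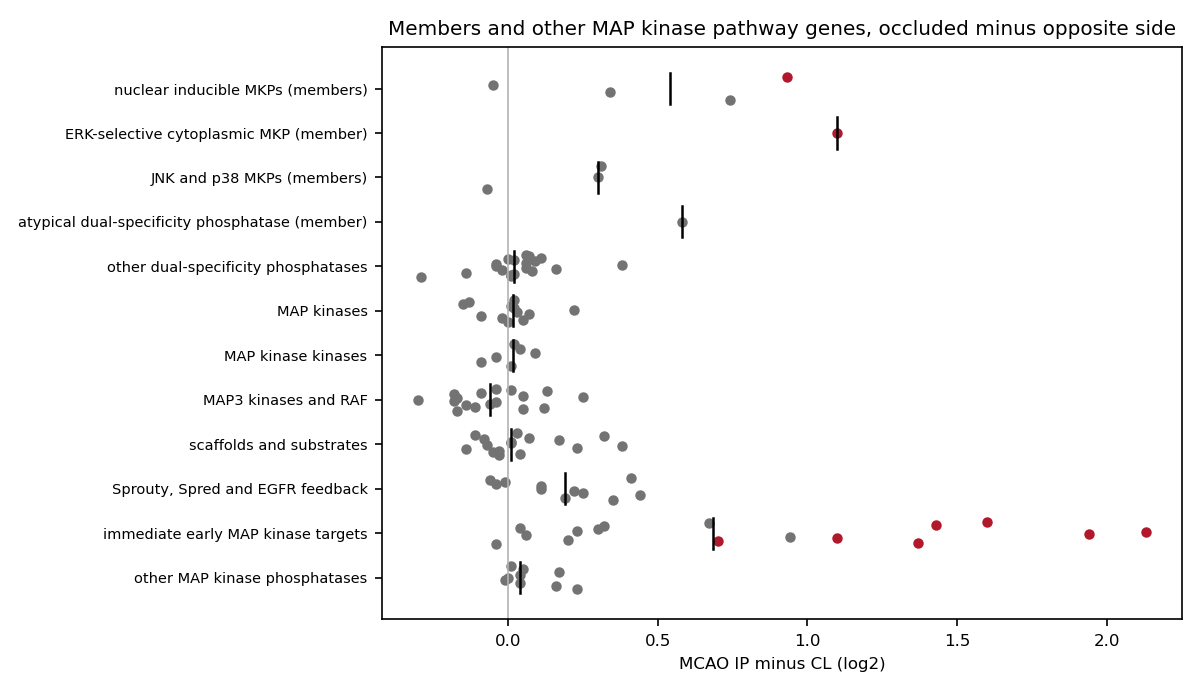
IP minus CL log2 difference in MCAO mice (x axis) of each measured gene in the 4 classes of Dusp members and 8 other lists of MAP kinase pathway genes (y axis), with a bar at the median and red points for an adjusted p under 0.05. Red points occur in the members (Dusp1 and Dusp6) and in the immediate early targets (7 of 16), and the kinases cluster around 0.

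Over the 20 arrays, Dusp1 and Dusp6 followed each other at a Pearson correlation of 0.974. Among non-members the values most like Dusp1 were those of Ccn1 (0.991), Jun (0.97) and Btg2 (0.97), and those most like Dusp6 were Ccn1 (0.975), Nr4a1 (0.955) and Jun (0.948). Ccn1 codes for a secreted matrix protein, Jun for an AP-1 subunit, Btg2 for an antiproliferative protein and Nr4a1 for an orphan nuclear receptor, and all are immediate early genes. Dusp16 was less alike to any gene, with 1700086L19Rik (0.782), F11r (0.765) and Pask (0.748) at the top. It was above background on only 5 of the 20 arrays, so little can be read from its pattern. Dusp14 correlated with Dusp6 at 0.82 and with Dusp1 at 0.78, and Dusp5 with both at 0.68 and 0.67. Dusp8 was at -0.34 with Dusp6 and -0.26 with Dusp1. These arrays share their 4 groups and come in pairs from 10 mice, so the correlations describe the pattern and carry no test.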

How the data were processed

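Whole-transcript Affymetrix arrays measured RNA of both hemispheres of 12 mice. The authors deposited log2 signals. Affymetrix Expression Console is the tool in the submitters' processing notes. Version, normalization and genome build: not given in the sources used here. That the scale is log2 was read from the values and the tool, and folds rest on it. Of 29129 probe sets, 6923 controls were left out and 22206 tested without a filter on signal.

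Both hemispheres of a mouse were left out where an array's median correlation with the others was under 0.9. Within-mouse comparisons used limma 3.58.1 in R 4.3.3 (lmFit, eBayes) with mouse as a fixed block and all 4 groups. Hemispheres of a mouse deviated together (r 0.11 to 0.31 in 10 mice, median 0.15, against -0.2 to 0.17, median -0.02, between mice). Comparisons between mice used the arrays of 1 side. P-values were adjusted by Benjamini-Hochberg. Errors are SE unless SD is written.

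Genes outside the members were chosen by rule: up to 3 called genes of greatest change per list, or the 2 of smallest p, and the 3 most correlated genes. Those of the kinase, scaffold, other MAP kinase phosphatase and marker lists are not named in the text. Dusp7 and Dusp9 were added as relatives of Dusp6, with their values known. Fosl2, Egr1, Myc, Etv1, Fosl1 and Ier3 were also added outside the rule, as examples of immediate early genes that did not pass. The members, lists, array rule and tests were chosen with earlier results of these data known. The fits were tested on simulated data. Alternatives covered the arrays, block, eBayes settings, filters, normalization, array weights and each mouse left out.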

Additional observations from a re-analysis of the deposited data

Results flagged for a closer look

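Dusp6 had side differences of opposite sign in the 2 kinds of surgery. It was higher on the ipsilateral side in 7 of 7 MCAO mice (0.27 to 1.75) and lower in 3 of 3 sham mice (-0.23 to -0.07). The difference between them was 1.24 ± 0.31 (limma unadjusted p = 0.00145, adjusted p = 0.481). Over all probe sets 31, or 0.14%, had the same pattern. On all 24 arrays the difference was 1.26 ± 0.33, and sham mouse 1, whose arrays stood apart, was at 0.36. In 27 groups of 7 values looked at for a single array far from the others, 0 stood out.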

How the results depend on the processing

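Between the sides of MCAO mice, all 24 arrays gave 1 member called higher and 0 probe sets lower, and with only the MCAO arrays and the replicate block 0 members were higher and 0 probe sets lower. Trend and robust settings gave 71 probe sets higher and 13 lower, leaving out dim probe sets 6 lower, and median centring 1 lower. With no replicate block, so with the pairing of hemispheres ignored, 28 were higher and 1 lower, Dusp1 (adjusted p = 0.00811) and Dusp6 (0.00915) were called, and dropping the block changed no member's call in any within-mouse comparison. The comparison of side differences gave 5 probe sets higher with trend and robust settings. Against sham IP, all 24 arrays gave 1 probe set higher, 0 lower and 0 members, trend and robust settings 44 higher, leaving out dim probe sets 8 lower, and both sides in 1 model 9 lower. In the contralateral comparison trend and robust settings gave 1 higher.

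Signs turned for the values that follow. On all 24 arrays Dusp8 was at 0.05 between the sides of MCAO mice, 0.13 in the comparison of side differences and 0.20 against sham IP, where Dusp2 was at -0.25. Between the sides of sham mice, Dusp1 was at -0.12, Dusp8 at -0.08 and Dusp14 at -0.33. In the contralateral comparison Dusp4 was at -0.25, Dusp10 at -0.07 and Dusp16 at 0.02. Median centring gave 0.01 for Dusp4 in sham mice and -0.02 for contralateral Dusp8, and array weights -0.01 for the latter. The cause was not tested.

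Leaving out each of 10 mice gave, between the sides of MCAO mice, 17 to 26 probe sets higher, 0 to 3 lower and 0 to 2 members. Against sham IP it gave 22 to 39 higher, 1 to 7 lower and 2 members each time, and it gave 0 to 1 higher in sham mice and 0 to 8 in the comparison of side differences. Dusp2 was at -0.15 to 0.04 between the MCAO sides and -0.09 to 0.32 against sham IP. Between the sham sides Dusp4 was at -0.20 to 0.18, Dusp5 at -0.03 to 0.18, Dusp8 at -0.01 to 0.16 and Dusp16 at -0.28 to 0.06. In the contralateral comparison Dusp4 was at -0.02 to 0.15, Dusp5 at -0.04 to 0.22, Dusp8 at -0.04 to 0.07, Dusp10 at -0.10 to 0.21, Dusp14 at -0.05 to 0.15 and Dusp16 at -0.16 to 0.04. Signals near background limit Dusp2, Dusp4 and Dusp16, and 3 sham mice limit every comparison with sham.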
